A study of Mus musculus with 16 samples.

Results

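In SINE KO mice, 189 of 45101 probe sets (0.419%) were detected on all 4 arrays of the cerebellum and on none of the 4 arrays of the rest of the brain, and 377 (0.836%) were detected the other way round. These 566 probe sets are called switched here, and they were chosen by that rule from the 8 KO arrays, with 2 females and 2 males for each brain part. A probe set is a group of short probes on the array designed to read the transcripts of a gene; some can bind several genes. The cerebellum probe sets included 149 with a single gene symbol, which name 140 genes, 4 with several symbols and 36 without a name in the annotation used. The rest-of-brain probe sets included 301 with a single symbol, for 283 genes, 3 with several and 73 unnamed. Probe sets of the transcription factors Barhl1, Barhl2, Zic2, Pax6 and Lhx1, known from granule or Purkinje cells, stood on the cerebellum side. Those of Tbr1, Fezf2, Emx1, Dlx1, Dlx5 and Lhx6 stood on the side of the rest of the brain. So did those of the dopamine receptor Drd1, the peptide Avp and 3 of 3 probe sets of the potassium channel subunit Kcnv1. Another probe set of Pax6 was detected on all 8 KO arrays, and another of Lhx6 on 1 KO cerebellum array and no KO rest-of-brain array. The KO calls chose these genes, so they are given as a description with no test; the 8 WT arrays took no part in the choice and are the independent measure used below.

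The study profiled the cerebellum and the remaining brain, called the rest of the brain, after brain stem remnants had been dissected away, of WT and homozygous SINE KO littermates of both sexes, on the C57BL/6J background, with 2 arrays for each of 8 groups. The SINE KO line carries a 4-bp deletion made with CRISPR/Cas9 in the SINE exon of a brain-specific fusion transcript of Ppargc1a (Pgc1α); it is a single founder line, the deletion is present in every cell, and the reference isoform was left in place. The WT animals carry no engineered allele, and the labels give no treatment. The age of the animals used for the arrays is not given in the sources used here, and the labels do not say whether the cerebellum and rest-of-brain arrays with the same number come from 1 animal. The p-values below measure the spread between arrays of separate specimens, as far as the labels and methods describe them.

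The cerebellum holds few neuron types in great number. Granule cells are its small excitatory neurons, Purkinje cells are its GABAergic output from the cortex, and unipolar brush cells, Bergmann glia and inhibitory interneurons surround them. It arises from the dorsal hindbrain next to the midbrain border, while the cortex, hippocampus and striatum arise from the telencephalon, and each territory keeps expressing part of the transcription factor code that specified it.

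The deposited values are not intensities. They take 5 levels (2, 1, 0, -1 and -2), read here as detection calls, with level 2 as detected; the sources do not state this reading. A call says whether a transcript was seen, so no fold change can be given, and a gene detected in both brain parts may still differ in level. In bulk tissue, fewer cells of a type and less RNA per cell cannot be told apart. Between 25517 and 27476 probe sets were detected on the KO cerebellum arrays and between 26893 and 27534 on the KO rest-of-brain arrays. Of all probe sets, 22459 were detected on all 8 KO arrays, 13467 on none and 9175 on some.

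The brain-part labels were checked against marker genes. All 9 granule cell and all 8 Purkinje cell marker genes had a probe set detected on all 4 KO cerebellum arrays, against 5 and 6 on all 4 KO rest-of-brain arrays. Of 6 marker genes of cortex and hippocampus, 6 were found on all 4 KO rest-of-brain arrays and 3 on all 4 KO cerebellum arrays, where 2 were on none. Other marker sets separated the parts less or not at all by gene. Of 7 striatum marker genes, 7 were found on all 4 KO rest-of-brain arrays and 6 on all 4 KO cerebellum arrays. By probe set, the striatum share was lower on every KO cerebellum array than on any KO rest-of-brain array. All 3 Bergmann glia marker genes were found on all 4 KO arrays of both parts. Some arrays stood apart. The KO rest-of-brain female replicate 1 detected 72.2% of granule cell and 87.5% of Purkinje cell marker probe sets, against 44.4 to 55.6% and 66.7 to 70.8% on the other 3 KO rest-of-brain arrays. The WT cerebellum female replicate 2 detected 61.1% of granule cell marker probe sets, and it lay between the brain parts on the switched probe sets as well. Hindbrain marker probe sets stood at 66.7% on both KO cerebellum female arrays and at 11.1% on both KO cerebellum male arrays. Pituitary markers ran from 0.0 to 90% over the KO rest-of-brain arrays. The wider lists of hindbrain and spinal cord genes and of pituitary genes held no switched probe set. The list of midbrain-hindbrain and hindbrain patterning factors held 6 of 70 switched to the cerebellum. The part of such tissue in the results was not tested. Counts are given with and without KO rest-of-brain female replicate 1 and WT cerebellum female replicate 2. For the other KO arrays only the range of counts with each array left out in turn is given.

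The switched probe sets were detected mostly on the matching brain part of arrays that had not chosen them. The cerebellum probe sets were detected at 80.4% on WT cerebellum female replicate 1, 30.2% on female replicate 2, 96.3% on male replicate 1 and 81.5% on male replicate 2. On the 4 WT rest-of-brain arrays they stood at 7.41 to 13.2%. The lowest WT cerebellum array thus lay above the highest WT rest-of-brain array, but far below the other 3. The rest-of-brain probe sets were detected at 83.0 to 96.6% on the WT rest-of-brain arrays. On the WT cerebellum they stood at 17.8%, 43.2%, 13.3% and 18.6% in the same order of arrays. When each KO array was scored on probe sets chosen from the other 7, the KO cerebellum arrays detected 73.3 to 92.6% of cerebellum probe sets and 6.22 to 24.1% of rest-of-brain probe sets, and the KO rest-of-brain arrays 12.1 to 30.8% and 84.0 to 92.0%.

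**Figure D1:**
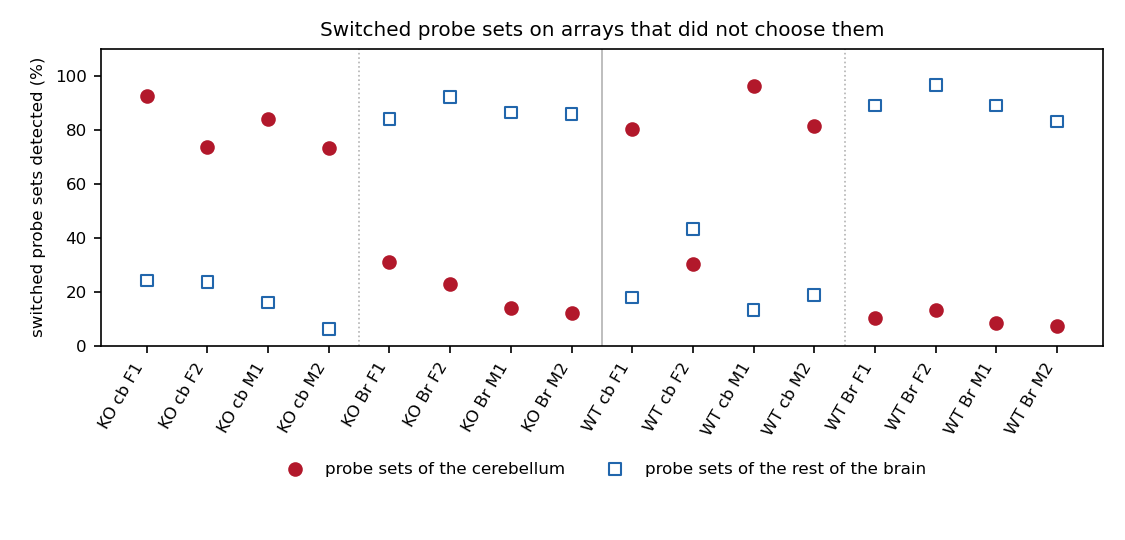
Percentage of switched probe sets found at level 2 (vertical axis) per array (horizontal axis, 16 arrays; cb, cerebellum; Br, rest of brain; F and M, female and male with replicate number), with filled circles for the probe sets of the cerebellum and open squares for those of the rest of the brain. Each WT array was scored on the probe sets chosen from the 8 KO arrays and each KO array on those chosen from the other 7; the WT cerebellum female replicate 2 sits at 30.2% and 43.2%, between the brain parts.

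Among the cerebellum genes, transcription factors of the cerebellum and hindbrain were read first. Barhl1, a BarH-like homeobox factor of granule cells and their precursors, had a probe set at level 2 on all 4 KO cerebellum arrays and at level 0 on all 4 KO rest-of-brain arrays. The WT arrays read the same, with level 2 on 4 of 4 cerebellum arrays and level 0 on 4 of 4 rest-of-brain arrays, so the WT brain parts did not overlap. In the KO that separation was set by the rule. A further Barhl1 probe set was at level 0 on all 16 arrays. Its relative Barhl2 has 1 probe set, which read exactly as Barhl1 did. Zic2, a zinc finger factor of the developing cerebellum, was at level 2 on all 8 cerebellum arrays; among the rest-of-brain arrays it was at level 1 on 1 KO and 1 WT array and at level 0 on the other 6. Pax3, a paired-box factor of the dorsal neural tube, had a probe set at level 2 on all 8 cerebellum arrays and at level 0 on all 8 rest-of-brain arrays, while another of its probe sets was also detected on 1 KO and 1 WT rest-of-brain array. Lhx1, a LIM homeobox factor of Purkinje cells, had 2 of 2 probe sets switched. One of them read level 2 on all 8 cerebellum arrays, the other read level 1 on WT cerebellum female replicate 2, and both were at level 0 on every rest-of-brain array.

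The other cerebellum factors were less complete in the WT. Pax6, a paired-box factor of granule cells, Zic5, and Tlx3, a homeobox factor of excitatory hindbrain and spinal neurons, were each detected on 3 of 4 WT cerebellum arrays and on 0 of 4 WT rest-of-brain arrays. In each case the missing array was WT cerebellum female replicate 2, which read level 0. Lbx1, a homeobox factor of dorsal hindbrain and spinal interneurons, had 2 of 2 probe sets switched, each missing on that array too, and one was detected on 1 WT rest-of-brain array. Tfap2b, an AP-2 factor of cerebellar interneurons, was missing on WT cerebellum female replicate 1 instead. Ebf1, an early B-cell factor family member, had 2 of 5 probe sets switched, detected on 4 and 3 WT cerebellum arrays and on no WT rest-of-brain array; its 3 other probe sets were detected on all 16 arrays. Zic4 and Neurod2, a helix-loop-helix factor of neuronal differentiation, were detected on 3 of 4 WT cerebellum arrays and on 2 and 1 WT rest-of-brain arrays, so their WT brain parts overlapped.

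For Barhl1, Zic2, Barhl2, Tlx3, Lhx1 and Lbx1 no other probe set of the gene was detected on a KO rest-of-brain array, so the gene as a whole was switched. Pax6, Zic4, Zic5, Neurod2, Ebf1 and Tfap2b each had another probe set detected on all 8 KO arrays. These genes as a whole were thus detected in both brain parts, and why their probe sets differ was not tested.

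The promoters of 4 of the transcription factors are shown because each gene as a whole was switched in the KO, so that its promoter and its calls can be set side by side. Each is the RefSeq sequence on GRCm38.p6 from 250 bases before to 50 bases after an annotated gene start, 5′ to 3′ on the strand of the gene, in lower case with matches to the searched motifs in capitals. Barhl1 has 2 annotated starts, and the window with more motif matches was chosen for display. Its other window holds 1 match and 54.0% G and C. Barhl1 (chr2:28916619-28916918, minus strand) and Barhl2 (chr5:106458117-106458416, minus strand) are genes of the cerebellum side, and Emx2 (chr19:59458440-59458739, plus strand) and Tbr1 (chr2:61804203-61804502, plus strand) are genes of the rest-of-brain side.
Barhl1: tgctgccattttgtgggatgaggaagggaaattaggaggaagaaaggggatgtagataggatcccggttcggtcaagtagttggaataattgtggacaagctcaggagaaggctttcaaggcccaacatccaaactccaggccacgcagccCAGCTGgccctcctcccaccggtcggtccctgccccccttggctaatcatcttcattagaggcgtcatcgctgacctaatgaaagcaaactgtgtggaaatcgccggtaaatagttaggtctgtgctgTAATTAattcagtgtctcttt
Barhl2: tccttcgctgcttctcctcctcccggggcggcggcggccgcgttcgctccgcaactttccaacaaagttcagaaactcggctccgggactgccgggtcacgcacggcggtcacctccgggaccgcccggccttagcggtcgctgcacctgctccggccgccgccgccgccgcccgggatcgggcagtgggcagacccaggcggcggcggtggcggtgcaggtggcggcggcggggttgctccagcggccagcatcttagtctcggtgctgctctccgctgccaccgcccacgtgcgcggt
Emx2: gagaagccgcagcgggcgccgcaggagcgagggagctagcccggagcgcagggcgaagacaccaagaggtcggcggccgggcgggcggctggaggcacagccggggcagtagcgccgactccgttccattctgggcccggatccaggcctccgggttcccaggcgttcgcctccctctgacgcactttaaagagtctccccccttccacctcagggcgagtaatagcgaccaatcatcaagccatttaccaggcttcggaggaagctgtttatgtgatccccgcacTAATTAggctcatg
Tbr1: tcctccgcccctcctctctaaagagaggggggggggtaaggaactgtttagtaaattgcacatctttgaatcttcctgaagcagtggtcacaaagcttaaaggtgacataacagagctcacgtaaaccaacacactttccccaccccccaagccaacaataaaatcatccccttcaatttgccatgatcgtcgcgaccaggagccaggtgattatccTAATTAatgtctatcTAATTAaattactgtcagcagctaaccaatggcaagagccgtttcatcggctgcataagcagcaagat
The capitals mark TAATTA, a core bound by many homeobox factors, in Barhl1, Emx2 and Tbr1, and CAGCTG, an E-box, in Barhl1. TAATTA starts at position 30 after the gene start in Barhl1 and 37 in Emx2, and at positions -33 and -18 in Tbr1. The Barhl2 window holds none of the motifs searched, and it is the richest in G and C of the 4, at 73.7% against 46.0% in Tbr1.

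Over all genes with a switched probe set, promoters were found for 114 of 140 cerebellum genes (167 promoters) and 209 of 283 rest-of-brain genes (283 promoters). They were searched on both strands, and promoters on chromosome 18 were left out. Of the 140 and 283 genes, 51 and 104 had another probe set detected on all 8 KO arrays, so these sets include genes detected in both brain parts. TAATTA was held by 4.79% of the cerebellum promoters, 3.53% of the rest-of-brain promoters and 3.42% of all promoters in the table. The E-boxes CAGATG and CAGCTG were held by 13.2% and 18.0% of cerebellum promoters, 13.8% and 16.3% of rest-of-brain promoters, and 13.4% and 16.4% of all. TATAAA, the TATA box core, was held by 2.99%, 11.7% and 9.76%, and TGACGTCA, the full cAMP response element, by 4.19%, 1.06% and 2.5%. The median share of G and C was 59.0% in the cerebellum promoters, 61.0% in the rest-of-brain promoters and 58.3% in all. These are counts of letters with no test, and several promoters can belong to 1 gene. The 4.19% is 7 promoters and the 2.99% is 5.

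**Figure D2:**
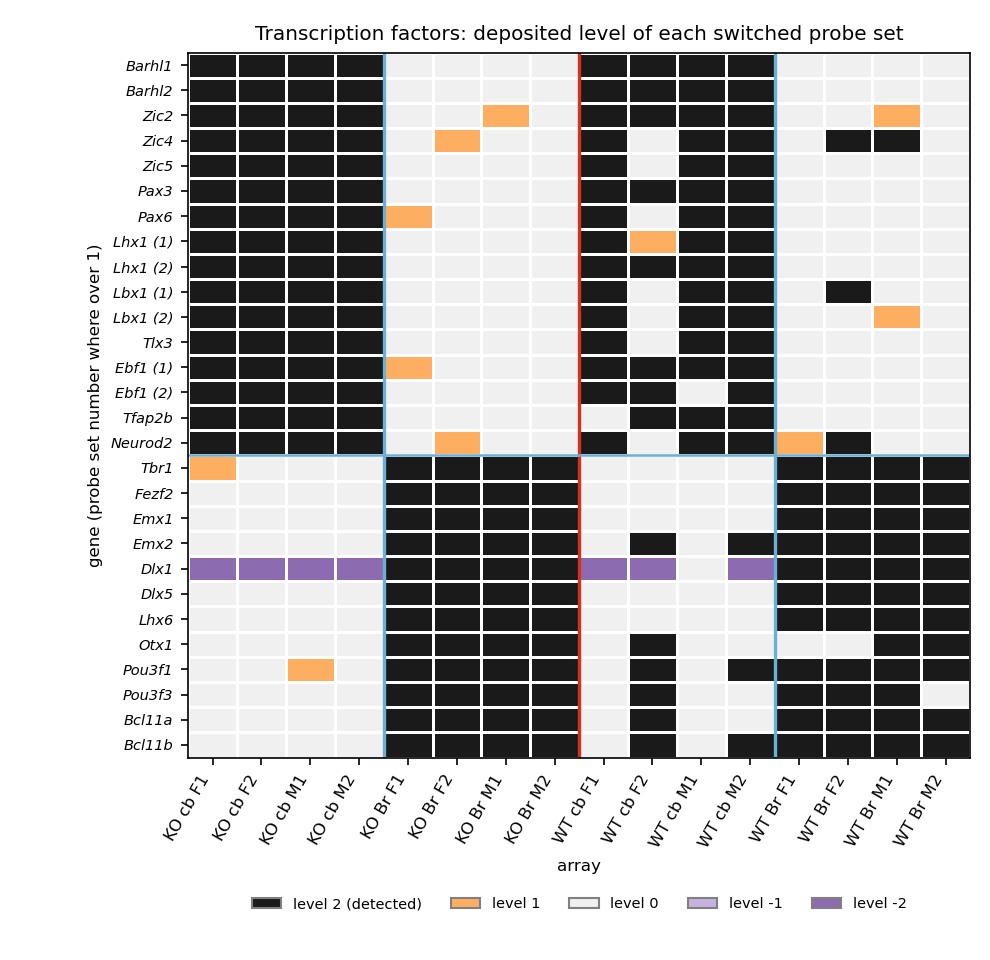
Deposited level of each switched probe set of transcription factor genes (rows; numbers in brackets separate probe sets of a gene) on the 16 arrays (columns), with black for level 2 (detected), orange for level 1, light grey for level 0 and purple for levels below 0; the blue horizontal line parts cerebellum from rest-of-brain genes and the red vertical line KO from WT. The KO columns are fixed by the rule; in the WT columns, Barhl1, Barhl2, Zic2, Pax3, Tbr1, Fezf2, Emx1, Dlx1, Dlx5 and Lhx6 keep the pattern on all 8 arrays.

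Outside transcription factors, the cerebellum genes were of mixed function. Il17re, a receptor chain for an interleukin of the IL-17 family, had 2 of 3 probe sets switched, each detected on 3 of 4 WT cerebellum arrays and 0 of 4 WT rest-of-brain arrays. Slc5a1, the sodium-glucose cotransporter, had 2 of 2 switched with the same WT count. Mmp23, a matrix metalloproteinase, had 2 of 2 switched, found on 1 and 3 WT cerebellum arrays and no WT rest-of-brain array. Smim38, a small membrane protein gene, had 2 of 3 switched, found on 3 and 4 WT cerebellum arrays and on 0 and 1 WT rest-of-brain arrays. All 4 genes thus leaned to the same side in the WT, but none of the 8 probe sets read 4 of 4 against 0 of 4 there. The uncharacterised genes 4930447F24Rik and 6430571L13Rik also had 2 switched probe sets each.

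Single switched probe sets on the lists of granule and Purkinje cells were those of Svep1, an extracellular matrix protein, Il16, a cytokine precursor with a neuronal form, and Arhgef33, a guanine nucleotide exchange factor. Each was detected on 3 of 4 WT cerebellum arrays and on no WT rest-of-brain array. Col18a1, the collagen from which endostatin is cut, was detected on 4 of 4 and 0 of 4 WT arrays, Adamts18, a secreted protease, on 3 and 0, and Epha8, an ephrin receptor, on 2 and 0. Lamb3, a laminin chain, was detected on 1 WT array of each brain part, and so showed no WT difference. Il16, Arhgef33, Col18a1 and Adamts18 each had another probe set detected on at least 1 KO rest-of-brain array. Kcnk12, a tandem-pore potassium channel subunit and the only channel gene of the list on the cerebellum side, was detected on 3 of 4 WT cerebellum and 1 of 4 WT rest-of-brain arrays.

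Several textbook cerebellar genes used to check the labels were not among the switched. Pcp2, a Purkinje cell protein, had 2 of 3 probe sets on all 4 KO cerebellum arrays and on 1 KO rest-of-brain array, and the same was true of 1 probe set each of Car8, a carbonic anhydrase family member of Purkinje cells, Cbln3, a granule cell cerebellin, and Gabra6, the granule cell GABA-A receptor subunit. In every one of these cases the rest-of-brain array was KO female replicate 1, the array with the high cerebellar markers. Zic1, Neurod1 and Calb1 were detected on all 16 arrays with every probe set. Without that array, 273 probe sets were switched to the cerebellum in place of 189, the granule cell list held 15 switched probe sets in place of 9, and the Purkinje cell list 9 in place of 3. Members of these lists that joined, among them Eomes, a T-box factor of unipolar brush cells, and Fat2, a protocadherin-like protein of granule cells, were read after the calls were seen.

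On the side of the rest of the brain, 12 of 135 probe sets of forebrain transcription factors were switched. Tbr1, a T-box factor of deep-layer cortical neurons, was at level 2 on all 4 KO rest-of-brain arrays, at level 1 on KO cerebellum female replicate 1 and at level 0 on the other 3 KO cerebellum arrays. In the WT it was at level 2 on all 4 rest-of-brain arrays and at level 0 on all 4 cerebellum arrays. Fezf2, a zinc finger factor of corticospinal neurons, and Emx1, a homeobox factor of the dorsal telencephalon, read level 2 on all 8 rest-of-brain arrays and level 0 on all 8 cerebellum arrays. A further probe set of Emx1 was detected on none of the 16. Dlx5, a homeobox factor of forebrain GABAergic neurons, and Lhx6, a LIM homeobox factor of cortical interneurons, gave the same full pattern with 1 probe set each. A further probe set of Lhx6 was detected on 1 KO cerebellum array and no KO rest-of-brain array, and on 0 and 3 WT arrays of these parts, so its 2 probe sets disagreed in the KO. Dlx1, which acts with Dlx5, was detected on the same arrays, but its cerebellum values lay at level -2 on all 4 KO and 3 WT arrays, a level whose meaning is not settled; counted as detected, it would leave Dlx1 on all 8 KO arrays and not switched.

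Emx2, Pou3f1, a POU-domain factor, and Bcl11b, a zinc finger factor of corticospinal and striatal neurons, were detected on all 4 WT rest-of-brain arrays and on 2 WT cerebellum arrays, female replicate 2 and male replicate 2. Bcl11a was detected on 4 WT rest-of-brain arrays and on WT cerebellum female replicate 2 alone. Pou3f3 was detected on 3 and 1 WT arrays, and Otx1, a homeobox factor of the forebrain and midbrain, on 2 and 1. The groups overlapped in the WT for these genes, and in each case the array on the wrong side was or included WT cerebellum female replicate 2. Pou3f1, Pou3f3, Bcl11a and Bcl11b also had probe sets detected on all 8 KO arrays.

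Genes of cortical and hippocampal neurons had 15 of 108 probe sets switched to the rest of the brain and 0 to the cerebellum. Crym, a thyroid hormone-binding protein, Mas1, the Mas receptor, Cplx3, a complexin of vesicle release, and 1 of 3 probe sets of C1ql3, a secreted synaptic protein, were detected on 4 of 4 WT rest-of-brain arrays and 0 of 4 WT cerebellum arrays. The other 2 probe sets of C1ql3 were detected on all 16 arrays, so that gene was seen in both parts. Nptx2, a neuronal pentraxin that binds AMPA receptors, had 2 of 2 probe sets switched, found on 4 and 3 WT rest-of-brain arrays and on 1 WT cerebellum array each. C1ql2 and Rspo1, a secreted Wnt agonist, were detected on 4 WT rest-of-brain arrays and on WT cerebellum female replicate 2. Krt12, a keratin, had 2 of 2 probe sets switched, with 0 and 2 WT cerebellum arrays. Icam5, the telencephalon-specific adhesion molecule, stood on the Purkinje cell list but was switched to the rest of the brain, as was Bcl11a, the other such member of that list. It was detected on 4 WT rest-of-brain arrays and on WT cerebellum female replicate 2.

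Striatal genes had 9 of 64 probe sets switched, all to the rest of the brain. Drd1, the dopamine receptor of direct-pathway neurons, had 2 of 2 probe sets at level 2 on all 4 KO rest-of-brain arrays and at level 0 on all 4 KO cerebellum arrays. In the WT both read level 2 on all 4 rest-of-brain arrays and on cerebellum female replicate 2, and level 0 on the other 3 cerebellum arrays. Rxrg, a retinoid X receptor, and Actn2, an actin cross-linking actinin, were detected on 4 of 4 and 0 of 4 WT arrays. Rasd2, a small GTPase of striatal neurons, was detected by 1 of 2 probe sets on 3 WT rest-of-brain arrays and no WT cerebellum array, and by the other on all 16. Pde10a, the phosphodiesterase of striatal projection neurons, had 2 of 5 probe sets switched, but 2 others were detected on all 16 arrays. Likewise Ptpn5, the striatum-enriched phosphatase, had 2 of 3 switched and the third on all 16, while Drd2 and Ppp1r1b, other striatal markers, were detected on all 16.

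Of 101 probe sets on the list of monoamine and acetylcholine transmission, which holds receptors, transporters and enzymes, 10 were switched to the rest of the brain and 0 to the cerebellum. Htr3a, the ion-channel serotonin receptor subunit, and Chrna5, a nicotinic receptor subunit, were detected on all 4 WT rest-of-brain arrays and on none of the WT cerebellum. Htr5b, a serotonin receptor, was detected on 3 and 0. Adra2c, an adrenergic receptor, Htr1f, another serotonin receptor, and Slc6a3, the dopamine transporter of midbrain neurons, were detected on 4 and 1 WT arrays. Chrna4, the main nicotinic partner subunit, was detected on 4 and 2 WT arrays, and another of its probe sets on all 16. Htr1d was detected on 1 WT array of each brain part and showed no WT difference.

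The neuropeptide precursor list held 2 of 87 probe sets switched to the rest of the brain (2.3%), and the peptide receptor list 5 of 105 (4.76%). Each held 0 switched to the cerebellum. Over all probe sets the shares were 0.836% for the rest of the brain and 0.419% for the cerebellum. Avp, the vasopressin precursor of hypothalamic neurons, read level 2 on all 8 rest-of-brain arrays and level 0 on all 8 cerebellum arrays. Cartpt, the CART peptide precursor, was also detected on 2 WT cerebellum arrays. Among the receptors, Oxtr, the oxytocin receptor, was detected on 4 of 4 WT rest-of-brain and 0 of 4 WT cerebellum arrays, with level 1 on cerebellum female replicate 2. Mchr1, the receptor of melanin-concentrating hormone, was detected on 4 and 0 by the switched probe set, although its 2 other probe sets were detected on 3 of 4 KO cerebellum arrays. Vipr1, a receptor of vasoactive intestinal peptide, was detected on 3 and 0 WT arrays, Ntsr1, a neurotensin receptor, on 4 and 1, and Cckbr, the brain cholecystokinin receptor, on 4 and 2.

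Amino acid transmission and ion channels followed with single subunits. Gabrg3, a GABA-A receptor subunit, had 2 of 4 probe sets switched, found on 4 and 3 WT rest-of-brain arrays and on 1 and 0 WT cerebellum arrays, with no other probe set detected on a KO cerebellum array. Gabra3, Neto1, an auxiliary kainate receptor subunit, Slc1a1, a neuronal glutamate transporter, and Slc1a2, the main glial one, each had 1 switched probe set beside at least 1 other that was detected on all 16 arrays. These genes were therefore seen in both brain parts. Of 258 potassium, sodium and calcium channel probe sets, 13 (5.04%) were switched to the rest of the brain. Kcnv1, a silent potassium channel subunit, had 3 of 3 probe sets at level 2 on all 8 rest-of-brain arrays; on the 8 cerebellum arrays 1 of them was detected once, on WT female replicate 2. Kcnh3, an ether-a-go-go-like channel of the forebrain, had 2 of 4 switched, each on 4 of 4 and 0 of 4 WT arrays, and Kcnj4, an inward rectifier, gave the same count with its single probe set. Kcng1, another silent subunit, Kcnip2, a channel-interacting protein, Scn3b, a sodium channel beta subunit, and Kcnab3, a beta subunit, were detected on 4 and 1 WT arrays, and Kcna4 and Cacna1d on 4 and 2. Scn3b, Kcna4 and Cacna1d had another probe set on all 16 arrays, and Kcnip2 and Kcnab3 had another detected on at least 1 KO cerebellum array.

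**Figure D3:**
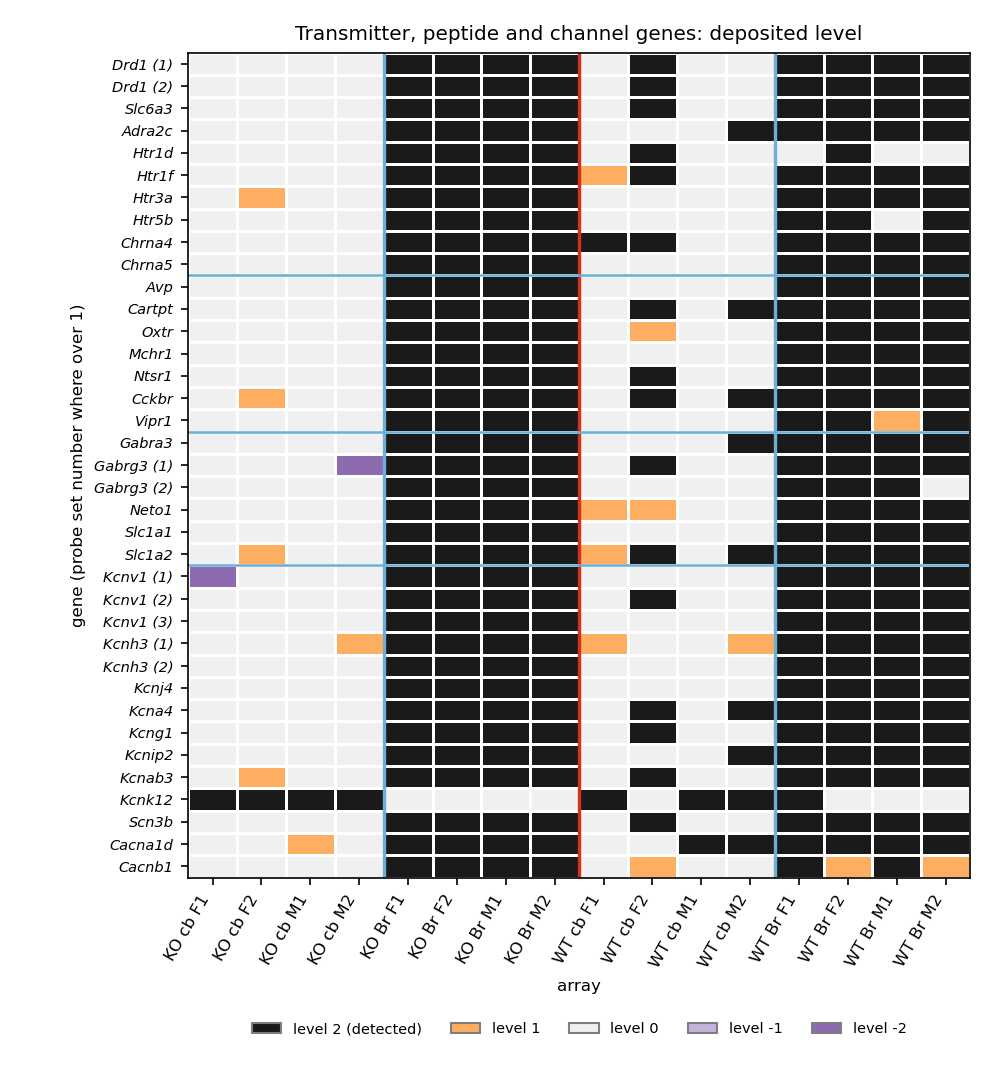
Deposited level of each switched probe set of monoamine and acetylcholine genes, neuropeptides and their receptors, amino acid transmission genes and ion channel genes (rows, in 4 blocks) on the 16 arrays (columns), in the same colours as for the transcription factors. Kcnk12 alone is switched to the cerebellum; in the WT columns, the dopamine transporter Slc6a3 and both Drd1 probe sets read level 2 on cerebellum female replicate 2.

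Secreted signals and matrix genes were also among the switched. Wnt9a and Rxrg on the list of Wnt, Fgf, Bmp and retinoid signalling, and 1 probe set of Fgf13, an intracellular sodium channel-binding factor, were detected on all 8 rest-of-brain and no cerebellum array. Wnt4, Wnt5a, Wnt7b, Fzd2, a Wnt receptor, and Inhba, an activin subunit, were switched as well, and found on 4 and 1, 3 and 2, 3 and 0, 4 and 2, and 3 and 0 WT arrays of rest of brain and cerebellum. Fgf13, Fzd2 and Wnt5a each had another probe set on all 16 arrays, and Wnt4 and Wnt7b another detected on at least 2 KO cerebellum arrays. Among matrix genes, Col6a2 was detected on 4 and 0 WT arrays, and Ncan, the proteoglycan neurocan, had 2 of 3 probe sets switched, on 4 and 0 and on 4 and 1, while the other was on all 16 arrays. Robo3, an axon guidance receptor, was detected on 4 and 0, and Epha4 by 1 of 5 probe sets on 4 and 1, with 3 others on all 16 arrays. The extracellular matrix list held 5 of 305 probe sets switched to the cerebellum (1.64%) and 4 to the rest of the brain (1.31%), and the list of cadherins and axon guidance 1 of 225 (0.444%) and 4 (1.78%). Over all probe sets the shares were 0.419% and 0.836%, so the cadherin share for the cerebellum was close to that of all.

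On the side of the rest of the brain, some genes outside the lists also had several switched probe sets. Csmd1, a large complement-regulating membrane protein, Gcnt2, a glycosyltransferase, and Rin1, a Ras and Rab effector, had 2 each, and 5 of these 6 probe sets read 4 of 4 and 0 of 4 in the WT. The exception was a Rin1 probe set found on WT cerebellum female replicate 2. Csmd1 and Gcnt2 each had another probe set detected on all 16 arrays, and Rin1 had no other. Lipg, endothelial lipase, Plppr1, a phospholipid phosphatase-related membrane protein, Cklf, a chemokine-like factor, and Cfap20dc were found with 2 switched probe sets each, on 2 to 4 WT rest-of-brain arrays and on 0 to 3 WT cerebellum arrays. Plppr1, Cklf and Cfap20dc each also had another probe set detected on at least 3 KO cerebellum arrays.

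Over the lists, the share of switched probe sets was set beside that of all probe sets, 0.419% for the cerebellum and 0.836% for the rest of the brain. The granule and unipolar brush cell list held 9 of 54 switched to the cerebellum (16.7%) and 0 to the rest. The list of midbrain-hindbrain and hindbrain patterning factors held 6 of 70 (8.57%) and 0, and the Purkinje cell list 3 of 78 (3.85%) and 2 (2.56%). With level 1 counted as detected, the granule cell list held 4 in place of 9, and counted by gene it held 5 genes and the Purkinje cell list 1 to each side. By gene the list of midbrain-hindbrain factors held 2, and the forebrain factors 0 to the cerebellum and 7 to the rest. Forebrain factors held 3 of 135 to the cerebellum, all of them Zic5 and Ebf1, and 12 to the rest (8.89%). The cortical and hippocampal list held 0 and 15 (13.9%), the striatal list 0 and 9 (14.1%), and the list of monoamine and acetylcholine transmission 0 and 10 (9.90%). By gene these lists held 10, 5 and 8 to the rest, the list of amino acid receptors and transporters 1 and the ion channel list 4. The median difference in number of arrays was 0 in each list and over all probe sets. In the granule cell list 26 probe sets were detected on more KO cerebellum than rest-of-brain arrays and 0 on fewer, in the striatal list 0 and 26, and over all probe sets 3291 and 4786 of 45101. Of the remaining lists, neuropeptide precursors held 2 of 87 to the rest, neuropeptide receptors 5 of 105, amino acid receptors and transporters 6 of 152, and Wnt, Fgf, Bmp and retinoid signalling 9 of 212, each with 0 to the cerebellum. Thalamus and midbrain genes held 2 of 93 and 3, Bergmann glia and interneurons 1 of 45 and 0, and the lists of olfactory bulb (28), proliferation (69) and astrocytes (57) 0 and 1 each. The lists of choroid plexus, hindbrain and spinal cord, pituitary, meninges, oligodendrocytes, microglia and endothelium held no switched probe set. The lists share some genes, and 22 of the 140 cerebellum genes and 75 of the 283 rest-of-brain genes stood on any list. The list counts above rest on the KO calls that chose the probe sets. In the WT, the lists of granule cells, midbrain-hindbrain factors and Purkinje cells held 3, 2 and 1 switched to the cerebellum. To the rest, the forebrain, cortical and hippocampal, striatal and monoamine lists held 6, 9, 2 and 2. Over all probe sets 68 (0.151%) and 196 (0.435%) were switched in the WT.

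**Figure D4:**
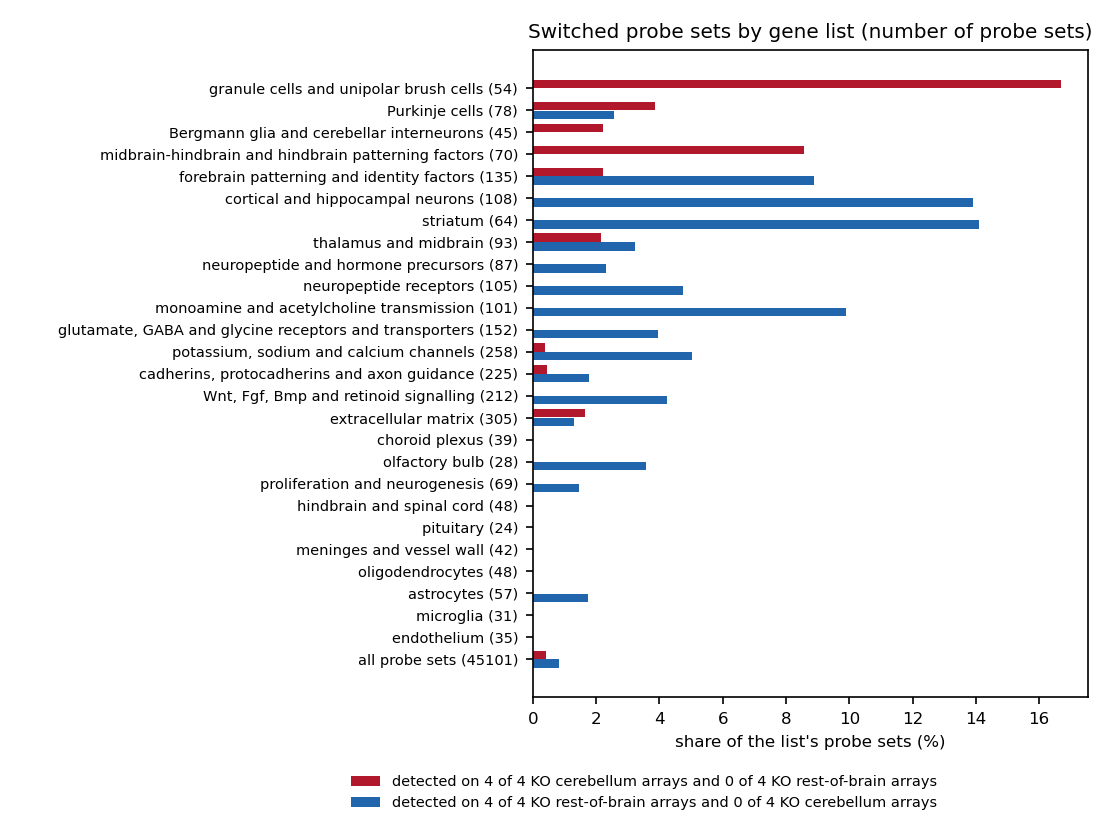
Share of the probe sets of each gene list (horizontal axis, %; the number of probe sets in brackets) that were switched to the KO cerebellum (red) or to the KO rest of the brain (blue), with all probe sets in the bottom row. The granule cell list reaches 16.7% for the cerebellum, and the cortical and hippocampal list and the striatal list reach 13.9% and 14.1% for the rest of the brain.

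The same contrast was then read in the WT, whose arrays the rule did not use. Of the 189 cerebellum probe sets, 25 (13.2%) were switched in the same direction in the WT, against 68 of all probe sets (0.151%). Of the 377 rest-of-brain probe sets, 115 (30.5%) were, against 196 of all (0.435%). None was switched in the opposite direction. Counting any difference in number of arrays, 178 of the 189 (94.2%) and 355 of the 377 (94.2%) leaned the same way in the WT, where 8.15% and 9.61% of all probe sets leaned that way. The median WT difference was 3 arrays of 4 in both sets.

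Much of the shortfall in the full count lay with a single array. Of 71 cerebellum probe sets detected on 3 WT cerebellum and 0 WT rest-of-brain arrays, 62 were missed on WT cerebellum female replicate 2. Of 79 rest-of-brain probe sets detected on 4 WT rest-of-brain arrays and 1 WT cerebellum array, 55 were detected on that array. Without it, 87 of 189 (46.0%) and 170 of 377 (45.1%) were switched in the WT, against 0.452% and 0.723% of all probe sets. Leaving out any other WT array gave 25 to 30 and 116 to 129.

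**Figure D5:**
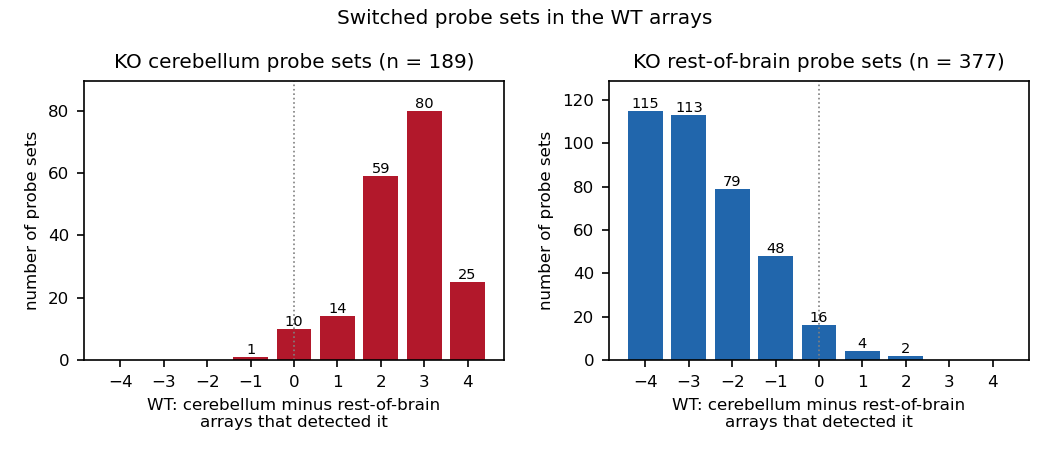
Number of switched probe sets (vertical axis) by the difference between the number of WT cerebellum and WT rest-of-brain arrays that detected them (horizontal axis, -4 to 4), for the probe sets of the KO cerebellum (left, red) and of the KO rest of the brain (right, blue). Of the former 178 lie above 0, 10 at 0 and 1 below; of the latter 355 lie below 0, 16 at 0 and 6 above.

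By Fisher's exact test (two-sided), 4 of 4 against 0 of 4 arrays gives p = 0.02857, the smallest that this design allows. Too few of the 45101 probe sets reached it for any to pass Benjamini-Hochberg adjustment. After Benjamini-Hochberg adjustment 0 probe sets (0.0%) were called in the KO and 0 in the WT, and 566 (1.25%) and 264 (0.585%) had an unadjusted p under 0.05. In either genotype that p is reached only by the pattern of the rule, so the 566 are the chosen probe sets themselves and test nothing about them. Whether the contrast differed between the genotypes was tested per probe set by an exact permutation test, two-sided, with KO and WT labels exchanged within sex and brain part. It called 0 probe sets after adjustment and 31 (0.0687%) at an unadjusted p under 0.05. A p that misses the threshold does not show that KO and WT were alike.

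A small group of switched probe sets showed no difference or the opposite difference in the WT, 11 of the 189 and 22 of the 377. They are described without a test, since their calls chose them; none passed the adjusted test between genotypes. Chaf1b, a subunit of the chromatin assembly factor, was detected on all 4 KO cerebellum arrays and no KO rest-of-brain array, but on 0 WT cerebellum arrays and 1 WT rest-of-brain array. On the other side, Ptprj, a receptor tyrosine phosphatase, was detected by 1 of 4 probe sets on 4 KO rest-of-brain arrays and no KO cerebellum array, and on 2 WT cerebellum arrays and no WT rest-of-brain array. Dazl, a germ cell RNA-binding protein, Gm9776 and Myo1f, an unconventional myosin, were among the others of this kind, each found on 1 more WT cerebellum than rest-of-brain array. The other switched probe set of Dazl was detected on 4 of 4 and 0 of 4 WT arrays, so its 2 probe sets disagreed. Kif1c, a kinesin, Pln, phospholamban, and Synpo, synaptopodin of dendritic spines, were singled out after their calls were seen. Each had a probe set at level 2 on all 8 WT arrays and all 4 KO rest-of-brain arrays, and at level 0 or 1 on the KO cerebellum arrays. Kif1c and Synpo also had another probe set detected on all 16 arrays, and Pln one detected on 15. Cdh10, a cadherin, was detected by its switched probe set on 3 WT arrays of each part, with 2 others on all 16. Ppargc1a itself was detected by 5 of 5 probe sets on all 16 arrays, so its calls do not separate the brain parts or the genotypes.

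Within each sex alone, 2 arrays stood against 2. In KO females 546 probe sets (1.21%) were detected on both cerebellum arrays and neither array of the other part, and 815 (1.81%) in the reverse pattern. In KO males the numbers were 623 (1.38%) and 1246 (2.76%). The switched probe sets are by construction those shared by the sexes: the 189 are 34.6% of the female and 30.3% of the male cerebellum probe sets, and the 377 are 46.3% and 30.3% of those of the rest of the brain. The smallest exact p for 2 against 2 arrays is 0.3333, so nothing was tested within a sex.

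The switch was narrower by gene than by probe set. With a gene counted as detected where any of its probe sets was, 76 of 18194 genes (0.418%) were switched to the cerebellum and 149 (0.819%) to the rest of the brain; 9 and 52 of them were switched in the WT too, against 0.115% and 0.434% of all genes. Of the 86 cerebellum genes with several probe sets, 51 had another detected on all 8 KO arrays, and of the 183 such rest-of-brain genes 104 did. Of the 168 other probe sets of cerebellum genes, 43 were detected on more KO arrays of the same side and 5 on more of the opposite side, and of the 389 of rest-of-brain genes 94 and 9; over all probe sets 3291 of 45101 leaned to the cerebellum and 4786 to the rest, and the difference was not tested. Level 1, read as marginal, made up 5.95% of the undetected values of the 189 cerebellum probe sets and 4.77% for the 377 of the rest of the brain, while 149 of the 189 and 303 of the 377 were at level 0 on all 4 arrays of the other part.

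Just outside the rule, 197 probe sets were detected on all 4 KO cerebellum arrays and on 1 KO rest-of-brain array, which was female replicate 1 for 84 of them, and 188 were detected on 3 and 0. On the other side 334 were detected on all 4 KO rest-of-brain arrays and 1 KO cerebellum array, and 228 on 3 and 0. Of the 1275 probe sets detected on 4 of the 8 KO arrays, 44.4% were switched.

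Some genes with a switched probe set, called switched genes here, lie next to each other in the genome. Among 18010 pairs of neighbouring genes on the array, 18 had both members switched, 13 of them in the same direction. Switched genes made up 421 of the 18033 genes placed. Whether 18 pairs are more than that share would give was not tested. Zic5, the transcript 2610035F20Rik and Zic2 follow each other on chromosome 14 and stood on the cerebellum side. Emx2 and its antisense neighbour Emx2os on chromosome 19, Dlx1 and Dlx1as on chromosome 2, and Pou3f3 and Dalir on chromosome 1 lay on the side of the rest of the brain. Whether probe sets of overlapping sense and antisense transcripts pick up each other's RNA was not tested. In 5 pairs the neighbours were switched in opposite directions, among them Pax3 with Epha4 on chromosome 1 and Lbx1 with Btrc on chromosome 19.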

How the data were processed

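RNA of cerebellum and rest of brain from 16 mouse specimens was hybridised to Affymetrix expression arrays. The authors' processing notes and methods name MAS5, while other text of the study names other summaries, and the methods name a human array although its probe sets bear mouse names. The deposited values are scores of 5 levels for 45101 probe sets, stored as numbers near 0. By value, 59.69% were at level 2, 1.509% at 1, 37.34% at 0, 0.2673% at -1 and 1.189% at -2. The reading of these scores as detection calls, with level 2 (value above 5e-38) as detected, comes from the values alone. Intensities were not used here, so the analysis of variance of the methods could not be run; precision is limited by how few arrays there are.

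Groups were taken from the labels. Of the probe sets, 34958 had 1 gene symbol in the platform annotation, 932 had several and 9211 had none; no symbol changed when updated through Entrez identifiers. Brain parts were compared by Fisher's exact test on the number of arrays detected, and genotypes by an exact permutation test of the difference between contrasts over 1296 arrangements, whose smallest p is 0.001543, each adjusted by Benjamini-Hochberg across the whole table. The code was tested on simulated data. Calculations ran in scipy 1.17.1, pandas 2.3.3 and numpy 2.4.6 under Python 3.11.15, and plots in matplotlib 3.10.9. No pair of arrays held the same calls; between 2663 and 5018 probe sets differed in any pair.

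The switched probe sets, the gene lists and the tests were chosen with earlier results of these data known. Named genes were drawn from those on a list with a switched probe set (at most 8 per list and direction) and those with 2 or more switched probe sets in 1 direction. Genes whose WT arrays showed no or the opposite difference (at most 10), Ppargc1a and the genes used to check labels were added. Others named were chosen after their calls were seen. Not every listed gene is described above. Col24a1, Tnnt1 and Synpo2, switched to the rest of the brain, were left out. Each was found on 4 WT rest-of-brain and 3 WT cerebellum arrays. Pcdh10 (2 and 1 WT arrays in that order), Sh3rf2 (4 and 1), Serpina9 (3 and 0) and Sox11 (3 and 0) were left out as well. Alternatives changed the reading of level 1 and of levels below 0, the threshold, the unit counted and the arrays included. A further result is not reported here. Promoter sequences are from RefSeq (GRCm38.p6).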

Additional observations from a re-analysis of the deposited data

Results flagged for a closer look

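In 8 of 48 groups of 4 arrays examined, 1 array was flagged as far from the other 3. The rule is set to flag about 1 in 20 groups by chance, which holds for continuous values. Most groups here are shares of few probe sets, where 3 tied arrays always flag the remaining one. Groups with all 4 arrays tied can never be flagged. The 8 of 48 can therefore not be compared with that rate. Among the share of marker probe sets detected, KO cerebellum male replicate 1 was low for cortex and hippocampus (33.3%), KO rest-of-brain male replicate 1 was low for cortex and hippocampus (66.7%) and high for pituitary (90%), WT cerebellum female replicate 2 was low for Purkinje cells (70.8%), WT cerebellum female replicate 1 stood apart for hindbrain (22.2%), and WT rest-of-brain male replicate 2 stood apart for Purkinje cells (75%) and striatum (80%). WT rest-of-brain female replicate 2 detected the most probe sets of its group, 28155. Several of these gaps are a single marker probe set wide.

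In the KO, 8 of 45101 probe sets were detected on both female cerebellum and both male rest-of-brain arrays and on neither array of the other part. Among them were Acadl, Gnas, Hoxb3 and P2rx5. The other way round there were 5 of 45101, among them Slc8a1. The difference between the sexes was not tested. Hindbrain marker probe sets stood at 66.7% on both KO cerebellum female arrays and at 11.1% on both male ones. On the KO rest-of-brain arrays they stood at 11.1 and 0.0% in females and 11.1 and 22.2% in males. What part hindbrain tissue had in the Hoxb3 calls was not tested. The genes were named after their calls were seen.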

How the results depend on the processing

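Read by gene, 76 and 149 genes were switched to the cerebellum and to the rest of the brain, 9 and 52 of them in the WT too, and the lists held 13 and 53 switched entries in place of 31 and 97. With at least 3 arrays of one part and at most 1 of the other, 738 and 1188 probe sets were counted. Leaving out each KO array in turn gave 204 to 273 and 402 to 497 switched probe sets. Leaving out each WT array gave 25 to 87 and 116 to 170 of them switched in the WT, with both highest values without WT cerebellum female replicate 2. Within KO females, leaving out 1 array gave 948 to 1358 and 1266 to 1492, and within KO males 898 to 1250 and 1700 to 2153, an alternative added after the data were seen, in which a single array stands for its part. Level 1 as detected gave 181 and 379, levels below 0 as detected 195 and 375, and probe sets with such levels left out 186 and 366. Named probe sets were recomputed under 3 of these: by gene 14 of 36 on the cerebellum side and 46 of 102 on the other were no longer switched, with level 1 as detected 7 and 11, and with levels below 0 as detected 0 and 5; none turned its direction. Fisher's exact test and the test between genotypes called 0 probe sets also where level 1 was counted as detected (KO and between genotypes), among the 1275 probe sets that could reach the threshold (KO), and without any 1 array; leaving out 1 array, 655 to 751 in the KO, 314 to 530 in the WT and 32 to 56 between genotypes had an unadjusted p under 0.05. With a replicate block, pairing arrays of the same sex and number, 0 were called and 0 had an unadjusted p under 0.05, since 4 pairs allow no p below 0.125 (exact). Between arrays of the same number, the correlation of deviations was -0.00138 in KO females, 0.0151 in KO males, -0.0181 in WT females and 0.0434 in WT males. With 2 replicates per sex, such values cannot show whether these arrays come from 1 animal. Calls record presence, so differences in level among genes detected in both parts were not measurable here.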
